A study of Mus musculus with 16 samples.

Results

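The matrix metalloproteinases (MMPs), their tissue inhibitors (TIMPs), the ADAMTS proteases and the ADAMTS-like proteins were followed in the mouse atrium during the first week after myocardial infarction. Members were all rows of the value table with exactly 1 gene symbol of the form Mmp, Timp, Adamts or Adamtsl followed by a number, which gave 49 of 30062 genes. They comprised 22 MMP, 4 TIMP, 18 ADAMTS and 5 ADAMTS-like genes, each measured by 1 row. Tissue came from male C57BL/6 wild-type mice that were 10 weeks old at surgery, measured on 16 arrays. Mice with a tied left anterior descending coronary artery gave atrial tissue 1, 3 or 7 days later, and sham-operated mice were the comparison, with 4 arrays per group. The labels do not state when sham tissue was taken beyond the title's mention of 0 days, nor whether both atria were used. Nothing in the labels says that the arrays of a group came from separate mice, so p-values measure the spread between these arrays. The infarct lies in the ventricle, and what was measured is the atrium as a whole, with all the cell types it then held.

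MMPs are zinc-dependent endopeptidases that are made as inactive precursors and act on collagens, gelatin, elastin, proteoglycans and many non-matrix proteins. TIMPs bind the active site of these enzymes, and they differ in which enzymes they block. ADAMTS proteases are secreted metalloproteinases that carry thrombospondin repeats. Several of them cut the large proteoglycans versican and aggrecan, others trim procollagens or bind fibrillin microfibrils, and ADAMTS-like proteins share the repeats but have no protease domain. In the infarcted heart this system is known for the removal of damaged matrix and the later building of scar.

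The values are log2 signals as deposited, and differences are given on this log2 scale, infarction minus sham or later day minus earlier day. Of the 49 members, 30 passed the filter on low values (a signal higher than the array's own median on at least 4 of 16 arrays) and were tested. Against the median of the 5222 negative-control rows, which stood at 4.44 to 4.93, 19 members were above it on all 16 arrays and 20 were at or below it on all 16. A member at or below it on all 4 arrays of a group is called not above background there, and its difference is then written as a bound, with the mean of these medians in place of the lower group. Signal quality was unequal. The area under the receiver operating curve of positive against negative control rows, where 1 is complete separation, was 0.7431 on day 3 array 31 and 0.7548 on day 1 array 13, against 0.7931 to 0.8245 on the other 14 arrays. Array 31 also had a median correlation of 0.9347 with the other day 3 arrays, against 0.9827 to 0.997 within groups for the remaining arrays. Several results that rest on these 2 arrays are given with and without them. The labelled tissue showed its markers. The 11 tested atrial cardiomyocyte markers averaged 15.67 to 15.88 per array in sham, although Bmp10 was not above background there.

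The mouse genome holds a run of 10 MMP genes on chromosome 9 with no other protein-coding gene between them. Their order is Mmp13, Mmp12, Mmp1b, Mmp3, Mmp1a, Mmp10, Mmp8, Mmp27, Mmp20 and Mmp7. The following sequences are shown because this run holds both Mmp8, Mmp3 and Mmp12, which changed after infarction, and neighbours that stayed at background. Each is the 100 bases before the annotated start on the plus strand of GRCm38.p6, from RefSeq, and capitals mark the letters TGAGTCA or their reverse complement, a binding motif of the AP-1 (Fos and Jun) transcription factors.
Mmp3, at chr9:7445722-7445821: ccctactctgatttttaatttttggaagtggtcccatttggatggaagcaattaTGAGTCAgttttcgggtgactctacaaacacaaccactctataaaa
Mmp12, at chr9:7347274-7347373: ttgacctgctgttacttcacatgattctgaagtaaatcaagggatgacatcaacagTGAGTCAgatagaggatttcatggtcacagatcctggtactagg
Mmp8, at chr9:7558329-7558428: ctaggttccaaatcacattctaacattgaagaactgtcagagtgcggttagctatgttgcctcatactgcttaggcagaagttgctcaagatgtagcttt
Mmp13, at chr9:7272414-7272513: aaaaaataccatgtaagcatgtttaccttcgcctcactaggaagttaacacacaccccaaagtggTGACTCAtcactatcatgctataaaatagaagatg
Mmp10, at chr9:7502242-7502341: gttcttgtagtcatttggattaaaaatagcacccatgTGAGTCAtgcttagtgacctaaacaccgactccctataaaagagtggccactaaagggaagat

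Mmp12 has 2 annotated starts, and the window that holds the motif is shown. The motif began 46 bases before the start in Mmp3, 44 in Mmp12, 35 in Mmp13 and 63 in Mmp10. Over the 250 bases before the start, 7 of the 34 members with a RefSeq window held it on either strand, or 20.6%, against 5.16% of 27025 genes. All 7 were in the chromosome 9 run (Mmp3, Mmp7, Mmp10, Mmp12, Mmp13, Mmp1a and Mmp1b), none of the 24 other members had it, and Mmp8, Mmp20 and Mmp27 were without it. The letters TATAAA on the gene's strand were in 10 of 34 members (29.4%), against 8.94% of genes, and 7 of the 10 lay in the run. AGGAAG on either strand, the PEA3 motif of ETS factors, was in 38.2% of members, against 32.3% of genes. TGACGTCA, the cyclic AMP response element, was in no member window, against 1.77% of genes. Of the 7 members with TGAGTCA, Mmp3 and Mmp12 were tested and changed. Mmp1a, Mmp1b, Mmp7 and Mmp10 were at or below the negative-control median on all 16 arrays, and Mmp13 on 15 of 16, whereas Mmp8, without the motif, was higher on days 1 and 3.

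On day 1 after infarction, 12 of the 30 tested members were higher and 9 were lower than in sham (limma, adjusted p under 0.05), where 47.2% of all 18389 tested genes were called. On day 3 the counts were 13 higher and 5 lower, where 43.8% of genes were called, and on day 7 they were 15 higher and 3 lower, where 24.9% were called. The shares of genes called higher were 24.9% on day 1, 23.5% on day 3 and 14.9% on day 7, and those called lower were 22.2%, 20.2% and 9.94%. Over the 30 members the median difference was -0.10 on day 1, 0.18 on day 3 and 0.69 on day 7, beside medians of 0.06, 0.08 and -0.01 over all tested genes. In the test for any difference from sham, 27 members passed, where 52.4% of genes did. Only Mmp27, Mmp28 and Adamtsl5 of the tested members missed it. Adamts6, Adamts9, Mmp12, Mmp14, Mmp19 and Timp1 were higher on all 3 days, and Adamts7, Adamtsl4 and Timp4 were lower on all 3. Mmp2, Timp2 and Adamts10 were lower on day 1 and higher on day 7. Among these, the day 7 call was lost on leaving out any of 10 single arrays for Timp2 and any of 4 for Adamts9, as detailed with each gene. When each array was centred on its median, 8 members in place of 5 were lower on day 3. The day 1 counts were then 12 higher and 12 lower, and with quantile normalisation they were 11 and 11. The day 1 excess of higher members was thus not seen under either scaling.

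**Figure D1:**
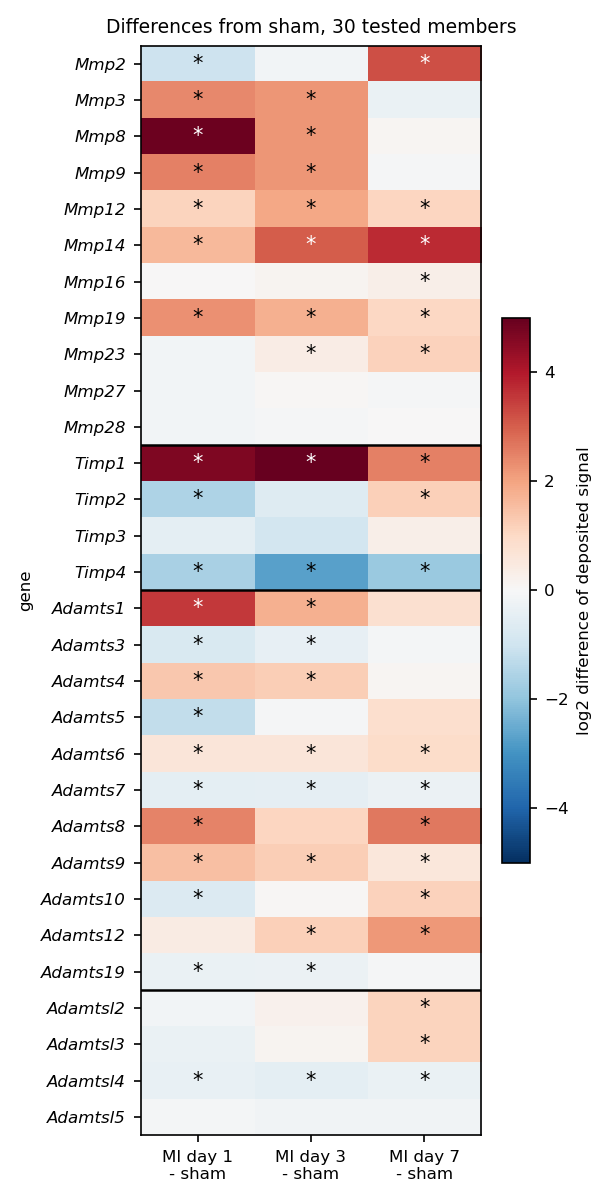
Log2 difference of the deposited signal from sham for the 30 tested members on day 1, day 3 and day 7, in columns, with the families MMP, TIMP, ADAMTS and ADAMTS-like from top to bottom separated by black lines. Red is higher and blue is lower than sham, and an asterisk marks an adjusted p under 0.05. Mmp8 on day 1 and Timp1 on days 1 and 3 carry the deepest red, and Mmp2 and Timp2 turn from blue on day 1 to red on day 7.

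Among the MMPs, 6 of 11 tested members were higher and 1 was lower on day 1, 7 were higher and none lower on day 3, and 6 were higher and none lower on day 7. Of all tested genes, 24.9% were called higher and 22.2% lower on day 1. These shares were 23.5% and 20.2% on day 3, and 14.9% and 9.94% on day 7. The median difference of the 11 MMPs was 1.12 on day 1, 1.77 on day 3 and 0.28 on day 7. By time, Mmp8, Mmp9 and Mmp3 were higher on days 1 and 3 and not on day 7, Mmp12 and Mmp19 were higher throughout, and Mmp14, Mmp2 and Mmp23 had their highest group mean on day 7.

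Mmp8 is the collagenase stored in neutrophil granules. It had 8.94, 8.49, 9.34 and 8.19 on day 1, 7.57, 5.33, 5.76 and 5.55 on day 3 and 3.84, 3.87, 3.94 and 4.15 on day 7, against 3.97, 3.86, 3.66 and 3.87 in sham. Every day 1 and day 3 array lay above every sham array, and day 7 and sham were both not above background. The day 1 difference was at least 4.25 (measured 4.90, SE 0.38, adjusted p = 7.69e-07), and the day 3 difference was at least 1.56 (measured 2.21, SE 0.38, adjusted p = 0.000349). Without arrays 31 and 13 the measured day 3 difference was 1.71.

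Mmp9 encodes gelatinase B, also a neutrophil and macrophage product. It had 6.10, 6.39, 7.10 and 6.24 on day 1, 9.17, 4.82, 4.66 and 5.98 on day 3 and 3.84, 3.87, 3.89 and 3.89 on day 7, against 3.97, 4.03, 3.83 and 3.91 in sham. Day 1 and day 3 arrays all lay above sham, but the day 3 arrays spread widely, with array 31 far above the other 3. The difference was at least 1.97 (measured 2.52, SE 0.70, adjusted p = 0.01) on day 1 and at least 1.67 (measured 2.22, SE 0.70, adjusted p = 0.0188) on day 3. Without array 31 the measured day 3 difference was 1.22 (adjusted p = 0.00204). On day 7 Mmp9 was not above background in either group. Both Mmp8 and Mmp9 passed the filter on low values only through the day 1 and day 3 arrays, so they could enter the counts only as members that were high there.

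Beside these values, 6 of the 7 tested neutrophil markers were higher on day 1, 6 on day 3 and none on day 7. Their summed log2 signal ran from 68.6 to 78.8 on day 1, 46.5 to 71.5 on day 3 and 35.8 to 36.9 on day 7, against 33.9 to 36.1 in sham. The markers Mpo, Elane, Ltf, Camp, Ngp and Padi4 were not above background in any group, and Retnlg was not in sham. With sham values of 4.07 to 4.29, near the sham array medians of 4.20 to 4.26, Retnlg passed the filter mainly through infarction arrays. It could thus hardly enter these counts as lower. Array 31 had a mean neutrophil marker signal of 10.21, where the other day 3 arrays had 6.64 to 6.72. The part of these cells in the Mmp8 and Mmp9 differences was not tested. In bulk tissue, a change in the number of cells of a type and a change in RNA per cell cannot be told apart. Beside these and all later marker counts, 47.2% of all tested genes were called on day 1, 43.8% on day 3 and 24.9% on day 7.

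Mmp3, which has the AP-1 letters in its upstream sequence, encodes stromelysin-1, which cuts proteoglycans and laminin and activates other MMP precursors. It had 9.56, 8.85, 8.48 and 9.73 on day 1, 9.63, 7.89, 9.05 and 9.22 on day 3 and 6.34, 6.43, 6.68 and 6.15 on day 7, against 7.11, 6.76, 6.33 and 6.80 in sham. All day 1 and day 3 arrays were above sham, and the day 7 arrays overlapped sham at its lower end. The difference was 2.40 (SE 0.34, adjusted p = 9.45e-05) on day 1 and 2.19 (SE 0.34, adjusted p = 0.000151) on day 3, and on day 7 it was -0.35 with an adjusted p of 0.53.

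Mmp19, an MMP active on basement membrane proteins, had 7.67, 8.23, 8.15 and 7.20 on day 1, 7.34, 7.26, 7.20 and 7.33 on day 3 and 6.82, 6.56, 6.0 and 6.77 on day 7, against 5.69, 5.38, 5.46 and 5.51 in sham. No infarction array overlapped sham on any day. Its differences were 2.30 (SE 0.21, adjusted p = 2.48e-06) on day 1, 1.77 (SE 0.21, adjusted p = 1.54e-05) on day 3 and 1.03 (SE 0.21, adjusted p = 0.0025) on day 7. The day 7 group was also lower than the day 1 group, by a difference of -1.27 (SE 0.21, adjusted p = 0.000557).

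Mmp12, macrophage elastase and the other tested gene with the AP-1 letters, had 5.64, 5.86, 6.25 and 5.85 on day 1, 7.13, 6.82, 6.18 and 6.69 on day 3 and 5.16, 6.19, 5.32 and 6.68 on day 7, against 4.98, 4.69, 4.80 and 4.66 in sham. All 12 infarction arrays exceeded the highest sham array, and the day 7 arrays were split, with 2 at 5.16 and 5.32 and 2 at 6.19 and 6.68. The differences were 1.12 (SE 0.29, adjusted p = 0.00648) on day 1, 1.93 (SE 0.29, adjusted p = 0.000112) on day 3 and 1.06 (SE 0.29, adjusted p = 0.0148) on day 7. Of the 14 macrophage and monocyte markers, 8 were higher on day 1 and 13 each on days 3 and 7, and none was lower. Their summed signal ran from 143.9 to 146.3 on day 1, 141.1 to 166.4 on day 3 and 146.9 to 165.7 on day 7, against 112.4 to 116.7 in sham, with all 14 above background in each group. Their part in the Mmp12 values was not tested.

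Mmp14 encodes the membrane-anchored MT1-MMP, a collagenase that, together with TIMP2, activates the precursor of gelatinase A. It had 7.52, 7.32, 7.40 and 7.70 on day 1, 8.86, 8.96, 8.82 and 8.86 on day 3 and 9.55, 9.65, 8.48 and 10.59 on day 7, against 6.05, 5.90, 5.67 and 5.78 in sham. The infarction arrays were above sham on each day, and the day 7 arrays spread over 8.48 to 10.59. Its differences were 1.63 (SE 0.30, adjusted p = 0.000674) on day 1, 3.02 (SE 0.30, adjusted p = 4.21e-06) on day 3 and 3.72 (SE 0.30, adjusted p = 3e-06) on day 7.

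Mmp2 encodes gelatinase A, which fibroblasts make constitutively. It had 8.40, 8.02, 7.14 and 8.74 on day 1, 8.34, 9.32, 9.07 and 9.18 on day 3 and 12.37, 12.51, 11.85 and 12.62 on day 7, against 8.94, 8.92, 9.15 and 9.41 in sham. On day 1 all arrays were below sham, on day 3 they overlapped it, and on day 7 all were above it. The difference was -1.03 (SE 0.31, adjusted p = 0.0147) on day 1 and 3.23 (SE 0.31, adjusted p = 9.07e-06) on day 7, with a day 3 value of -0.13 (adjusted p = 0.753). Without arrays 31 and 13 the day 1 difference was -0.72 (adjusted p = 0.00807). Day 7 exceeded day 1 by 4.26 (SE 0.31, adjusted p = 7.48e-07) and day 3 by 3.36 (SE 0.31, adjusted p = 2.54e-05).

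Mmp23, a short membrane-bound MMP released by furin cleavage, had 4.36, 4.43, 4.41 and 4.45 on day 1, 4.66, 5.05, 5.02 and 4.89 on day 3 and 5.62, 5.69, 5.56 and 5.93 on day 7, against 4.60, 4.55, 4.52 and 4.49 in sham. The groups did not overlap sham on days 3 and 7. It was higher on day 3, by 0.37 (SE 0.09, adjusted p = 0.00368), and on day 7, by 1.16 (SE 0.09, adjusted p = 1.9e-06), and on day 1 it was not above background, with a measured value of -0.13 (adjusted p = 0.239) that has no readable size. Centring of the arrays gave 0.24 on day 3, still called (adjusted p = 0.0215). With quantile normalisation the day 3 value was 0.24 and was no longer called (adjusted p = 0.17).

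**Figure D2:**
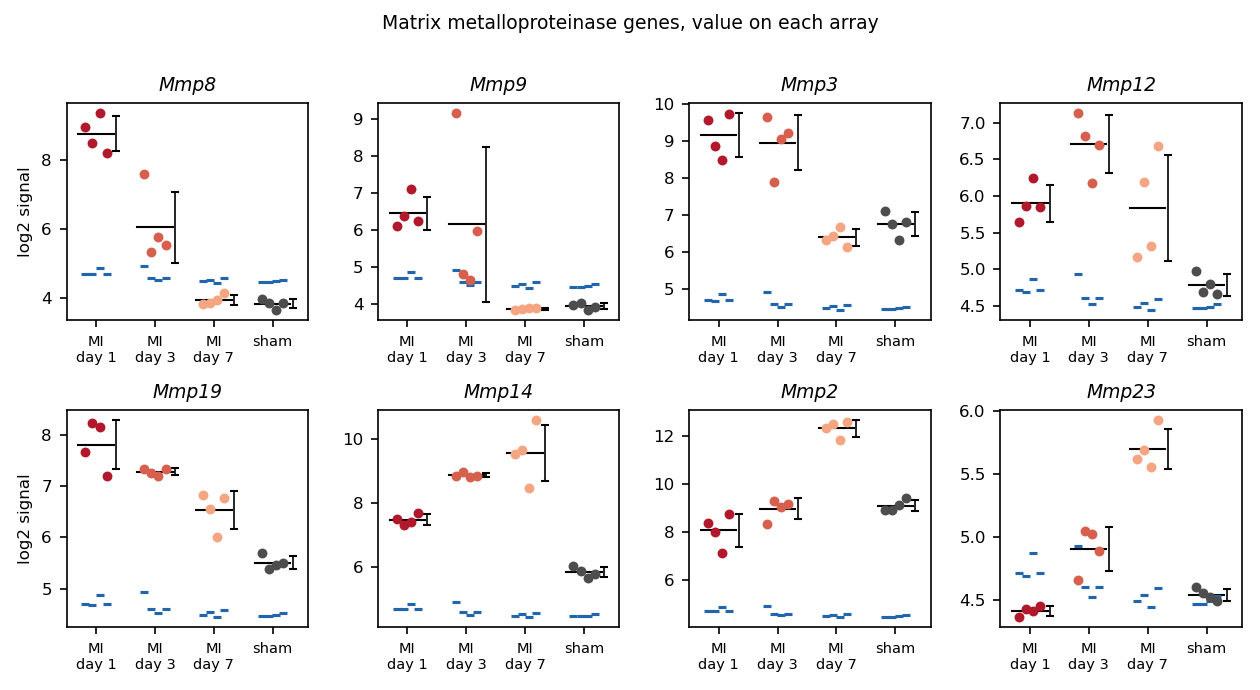
Log2 signal of 8 MMP genes on each array, in the order day 1, day 3, day 7 and sham, with 1 panel per gene. Dots are arrays, black lines with bars are the mean and SD of 4 arrays, and blue dashes are the median of the negative controls on that array. Mmp8 and Mmp9 lie at the blue dashes on day 7 and in sham, and Mmp14, Mmp2 and Mmp23 are highest on day 7.

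The remaining MMPs were at or near background. Mmp16, a membrane-type MMP, was at or below the negative-control median on all 16 arrays, so its call as higher on day 7, at 0.28 (SE 0.06, adjusted p = 0.00322), has no readable size. It passed the filter on low values only through 2 day 3 and 4 day 7 arrays, so it could enter the day 7 counts only as a member that was high there. Mmp27 and Mmp28 were likewise not above background and were not called on any day. Mmp28 on day 1, at -0.12, was called when array 13 or array 31 was left out. Not tested were Mmp7, Mmp10, Mmp11, Mmp13, Mmp17, Mmp1a, Mmp1b, Mmp20, Mmp21, Mmp24 and Mmp25. Among these, Mmp11 and Mmp13 lay above the negative-control median on 1 of 16 arrays and the others on none. Mmp13, the collagenase-3 of mouse, and Mmp1a and Mmp1b, the mouse relatives of human interstitial collagenase, were thus not measurable, and of the classical collagenase genes only Mmp8 was above background, on days 1 and 3.

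Of the 4 TIMPs, Timp1 was higher on all 3 days, Timp4 was lower on all 3, Timp2 was lower and then higher, and Timp3 was not called against sham. The family's median difference was -1.02 on day 1, -0.79 on day 3 and 0.75 on day 7. Timp1 is a soluble, broadly acting inhibitor induced by inflammatory signals, and it blocks MT1-MMP only poorly. It had 10.92, 9.94, 11.18 and 10.70 on day 1, 11.64, 10.52, 10.97 and 10.93 on day 3 and 8.96, 8.79, 7.52 and 8.84 on day 7, against 7.06, 5.72, 5.53 and 5.75 in sham. All 12 infarction arrays lay above sham, in which array 1 stood apart at 7.06 and the other 3 lay between 5.53 and 5.75. Its differences were 4.67 (SE 0.40, adjusted p = 1.54e-06) on day 1, 4.99 (SE 0.40, adjusted p = 9.4e-07) on day 3 and 2.51 (SE 0.40, adjusted p = 0.000451) on day 7. The day 7 group was lower than the day 1 group by a difference of -2.16 (adjusted p = 0.00141) and than the day 3 group at a difference of -2.48 (adjusted p = 0.00146).

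Timp2 inhibits MMPs and also bridges MT1-MMP to the gelatinase A precursor. It had 8.09, 8.02, 7.74 and 8.50 on day 1, 7.30, 9.85, 9.39 and 9.43 on day 3 and 10.85, 10.94, 10.56 and 11.04 on day 7, against 9.79, 9.65, 9.46 and 9.65 in sham. The day 1 arrays were below sham and the day 7 arrays above it, while day 3 held array 31 far below sham and 3 arrays close to it. The difference was -1.55 (SE 0.40, adjusted p = 0.00692) on day 1, -0.65 on day 3 (adjusted p = 0.21) and 1.21 (SE 0.40, adjusted p = 0.0414) on day 7. The day 7 call was lost when any 1 of the 4 sham arrays, the 4 day 7 arrays or day 1 arrays 11 and 12 was left out, with adjusted p between 0.0507 and 0.101. It was lost with quantile normalisation (adjusted p = 0.0672) and with no filter on low values (adjusted p = 0.0609). Without arrays 31 and 13 together the same difference of 1.21 had an adjusted p of 3.01e-05, and the day 3 difference was -0.08.

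Timp3 is held in the matrix and also blocks ADAMTS proteases and ADAM17. Its values ran from 7.45 to 8.24 on day 1, 5.98 to 7.91 on day 3 and 8.19 to 9.10 on day 7, against 8.17 to 8.61 in sham. Array 31, at 5.98, lay below the other 3 day 3 arrays at 7.84 to 7.91. The differences were -0.48 on day 1 (adjusted p = 0.282), -0.93 on day 3 (adjusted p = 0.0517) and 0.29 on day 7 (adjusted p = 0.657), while the test for any difference from sham gave an adjusted p of 0.0449. The day 1 value was called when array 31 was left out (adjusted p = 0.0461), and the day 3 value when array 32, 33 or 34 was left out (adjusted p between 0.0355 and 0.042). It was also called with quantile normalisation, at -1.13 (adjusted p = 0.0363), with centring, at -1.06 (adjusted p = 0.023), with a stricter filter on low values, at -0.93 (adjusted p = 0.0379), and with array weights, at -0.48 (adjusted p = 0.0341). Without arrays 31 and 13 the day 3 value was -0.46 (adjusted p = 0.0937).

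Timp4 is the TIMP whose expression is best known from the heart. It had 8.16, 8.09, 6.86 and 7.67 on day 1, 5.70, 6.71, 7.31 and 6.71 on day 3 and 8.20, 7.06, 7.30 and 7.26 on day 7, against 9.19, 9.21, 9.44 and 9.43 in sham. All 12 infarction arrays were below the lowest sham array. The differences were -1.62 (SE 0.34, adjusted p = 0.00193) on day 1, -2.71 (SE 0.34, adjusted p = 2.86e-05) on day 3 and -1.86 (SE 0.34, adjusted p = 0.00131) on day 7. Without arrays 31 and 13 they were -1.34, -2.41 and -1.86. Beside them, 5 of the 11 tested atrial cardiomyocyte markers were lower on day 1, 6 on day 3 and none on day 7, and none was higher. The summed signal of the 11 ran from 150.1 to 159.6 on day 1, 135.3 to 164.3 on day 3 and 162.1 to 168.9 on day 7, against 172.4 to 174.6 in sham. Nppa and Tnnt2 stood at the array's highest value on all 16 arrays (19.8 to 19.93), which 108 to 296 rows shared on an array. Myh6 was never at that value, but it stood at 19.81 on every sham and day 7 array, and its lowest value was 17.82. A fall of Nppa and Tnnt2 at that ceiling could not be read, nor could one of Myh6 among arrays at 19.81. The part of atrial cardiomyocytes in the Timp4 values was not tested.

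**Figure D3:**
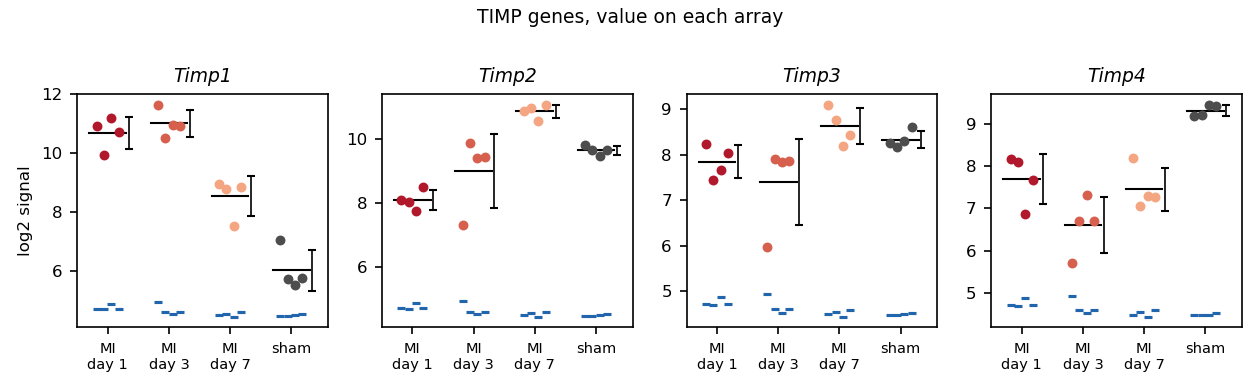
Log2 signal of the 4 TIMP genes on each array, in the order day 1, day 3, day 7 and sham. Dots are arrays, black lines with bars are the mean and SD of 4 arrays, and blue dashes are the median of the negative controls on that array. Timp1 is above sham on all infarction arrays and Timp4 below it on all of them, and day 3 array 31 is the low point of Timp2, Timp3 and Timp4.

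Among the ADAMTS proteases, 5 of 11 tested members were higher and 5 lower on day 1, 5 were higher and 3 lower on day 3, and 5 were higher and 1 lower on day 7. Beside these counts, 24.9% of all tested genes were called higher and 22.2% lower on day 1. On day 3 the shares were 23.5% and 20.2%, and on day 7 they were 14.9% and 9.94%. The median difference of the 11 ADAMTS genes was 0.42 on day 1, 0.61 on day 3 and 0.82 on day 7. The proteoglycan-cutting members Adamts1, Adamts4, Adamts9 and Adamts8 were higher on day 1, and Adamts5 was lower. Adamts12 and Adamts10 were higher on day 7.

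Adamts1 cuts versican and aggrecan. It had 12.09, 10.89, 11.73 and 11.14 on day 1, 10.21, 8.94, 9.94 and 9.79 on day 3 and 8.79, 8.79, 8.65 and 8.80 on day 7, against 7.77, 7.71, 7.63 and 8.64 in sham. All day 1 and day 3 arrays were above sham, and on day 7 the lowest array, at 8.65, was level with the highest sham array, at 8.64. The difference was 3.53 (SE 0.31, adjusted p = 1.69e-06) on day 1, 1.79 (SE 0.31, adjusted p = 0.000329) on day 3 and 0.82 on day 7 (adjusted p = 0.0631). The day 7 value was called when sham array 4, day 3 array 31 or day 3 array 32 was left out, with adjusted p between 0.0228 and 0.0384. Its chromosome 16 neighbour is Adamts5, another versican- and aggrecan-cutting enzyme. Adamts5 had 6.91, 7.13, 5.84 and 7.40 on day 1, 6.77, 8.64, 8.37 and 8.22 on day 3 and 8.94, 9.07, 8.73 and 8.90 on day 7, against 8.11, 8.09, 8.03 and 8.04 in sham. On day 1 all its arrays were below sham, at a difference of -1.25 (SE 0.36, adjusted p = 0.0125). Without arrays 31 and 13 the day 1 difference was -0.92 (adjusted p = 4.91e-05). On day 3 the difference was -0.07 (adjusted p = 0.89), and without arrays 31 and 13 it was 0.34 (adjusted p = 0.0362). The day 7 arrays were all above sham, by 0.84 (SE 0.36, adjusted p = 0.109), and the call was made without array 31 (adjusted p = 0.0157). Adamts1 and Adamts5 thus moved in opposite directions on day 1.

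Adamts4, an aggrecanase, had 5.38, 4.98, 5.72 and 5.47 on day 1, 6.87, 4.71, 4.66 and 4.94 on day 3 and 4.23, 4.15, 4.16 and 4.12 on day 7, against 4.15, 4.09, 4.02 and 3.94 in sham. Day 1 and day 3 arrays were above sham, day 3 array 31 stood far above the others, and day 7 and sham were not above background. It passed the filter through the day 1 and day 3 arrays, 1 day 7 array and no sham array. Adamts4 could thus enter the day 1 and day 3 counts only as a member that was high there. The differences were at least 0.90 (measured 1.34, SE 0.36, adjusted p = 0.00891) on day 1 and at least 0.81 (measured 1.24, SE 0.36, adjusted p = 0.0125) on day 3. Without array 31 the measured day 3 difference was 0.72 (adjusted p = 0.000444). Adamts9, a versican-cutting member found in vessels and valves, had 8.94, 8.48, 8.68 and 8.36 on day 1, 8.58, 8.01, 8.42 and 8.44 on day 3 and 7.82, 7.82, 7.31 and 7.76 on day 7, against 6.94, 7.17, 7.10 and 7.27 in sham. All infarction arrays exceeded sham. The differences were 1.50 (SE 0.16, adjusted p = 8.41e-06) on day 1, 1.24 (SE 0.16, adjusted p = 2.93e-05) on day 3 and 0.56 (SE 0.16, adjusted p = 0.0182) on day 7. The day 7 call was lost without sham array 1 or day 7 array 71, 72 or 74 (adjusted p between 0.0534 and 0.0555) and with quantile normalisation (adjusted p = 0.07).

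Adamts8, a proteoglycanase first described as an inhibitor of vessel growth, had 7.70, 4.98, 8.15 and 7.76 on day 1, 4.59, 6.31, 6.33 and 5.84 on day 3 and 8.28, 7.08, 7.82 and 6.09 on day 7, against 4.52, 4.72, 4.67 and 4.77 in sham. Day 1 and day 7 arrays were above sham, although day 1 array 12, at 4.98, lay close to the highest sham array, at 4.77. Day 3 overlapped sham through array 31. The difference was 2.48 (SE 0.63, adjusted p = 0.00608) on day 1, 1.09 on day 3 (adjusted p = 0.177) and 2.65 (SE 0.63, adjusted p = 0.00687) on day 7. With array weights, which gave array 31 the lowest weight, the day 3 difference was 1.42 and was called (adjusted p = 0.0146). Without arrays 31 and 13 it was 1.49 and was not called (adjusted p = 0.0584).

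Adamts12, which cuts cartilage oligomeric matrix protein, had 5.62, 5.50, 5.53 and 5.54 on day 1, 6.04, 6.31, 6.47 and 6.45 on day 3 and 7.04, 7.46, 6.82 and 7.86 on day 7, against 5.26, 5.24, 5.03 and 5.0 in sham. All 12 infarction arrays lay above sham. The difference was 0.42 on day 1 (adjusted p = 0.0642), 1.18 (SE 0.18, adjusted p = 0.000105) on day 3 and 2.16 (SE 0.18, adjusted p = 3.33e-06) on day 7. The day 1 value was called when day 3 array 31 or day 7 array 73 or 74 was left out (adjusted p between 0.0204 and 0.0434). Adamts10, which binds fibrillin-1, had 5.98, 5.88, 5.95 and 6.17 on day 1, 6.34, 6.98, 6.76 and 6.78 on day 3 and 7.89, 8.01, 7.54 and 7.84 on day 7, against 6.65, 6.74, 6.71 and 6.56 in sham. Day 1 arrays were all below sham, at a difference of -0.67 (SE 0.13, adjusted p = 0.000985), and day 7 arrays were all above it, by 1.15 (SE 0.13, adjusted p = 3.2e-05). On day 3 the groups overlapped, at 0.05 (adjusted p = 0.76). Adamts6, a close relative of Adamts10, ran from 7.12 to 7.62 on day 1, 7.07 to 7.62 on day 3 and 7.44 to 8.16 on day 7, against 6.66 to 6.87 in sham. It was higher on day 1, by 0.61 (SE 0.16, adjusted p = 0.00834), on day 3, by 0.61 (SE 0.16, adjusted p = 0.00731), and on day 7, by 0.90 (SE 0.16, adjusted p = 0.00122). The day 1 difference was 0.38 and not called with quantile normalisation (adjusted p = 0.0709).

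Adamts3, Adamts7 and Adamts19 were lower on days 1 and 3. Adamts3, a procollagen-processing enzyme that also takes part in activating the lymphatic growth factor VEGF-C, was lower at a difference of -0.77 (SE 0.14, adjusted p = 0.000775) on day 1 and at a difference of -0.41 (SE 0.14, adjusted p = 0.0305) on day 3. The day 3 call was lost without sham array 3, sham array 4 or day 3 array 31 (adjusted p between 0.084 and 0.103), and without array 31 the difference was -0.27. On day 7 the difference was -0.08 (adjusted p = 0.777). Adamts7, like Adamts12 a cutter of cartilage oligomeric matrix protein, was close to background. It was not above background on day 1, with a difference of -0.25 or lower (measured -0.48, adjusted p = 5.21e-05), and was lower at a difference of -0.44 (SE 0.06, adjusted p = 8.52e-05) on day 3 and -0.31 (SE 0.06, adjusted p = 0.00253) on day 7. Adamts19 also lay near background, with values from 4.44 to 4.75 on day 1, 4.54 to 4.67 on day 3 and 4.72 to 5.03 on day 7, against 4.83 to 4.96 in sham. Its difference was -0.16 or lower on day 1 (measured -0.35, adjusted p = 0.00251), -0.30 (SE 0.08, adjusted p = 0.00614) on day 3 and -0.04 on day 7 (adjusted p = 0.799). With quantile normalisation the measured day 1 difference was -0.53. Adamts13, which cuts von Willebrand factor, Adamts14, Adamts15, Adamts16, Adamts17, Adamts18 and Adamts20 were at or below the negative-control median on all 16 arrays and were not tested.

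**Figure D4:**
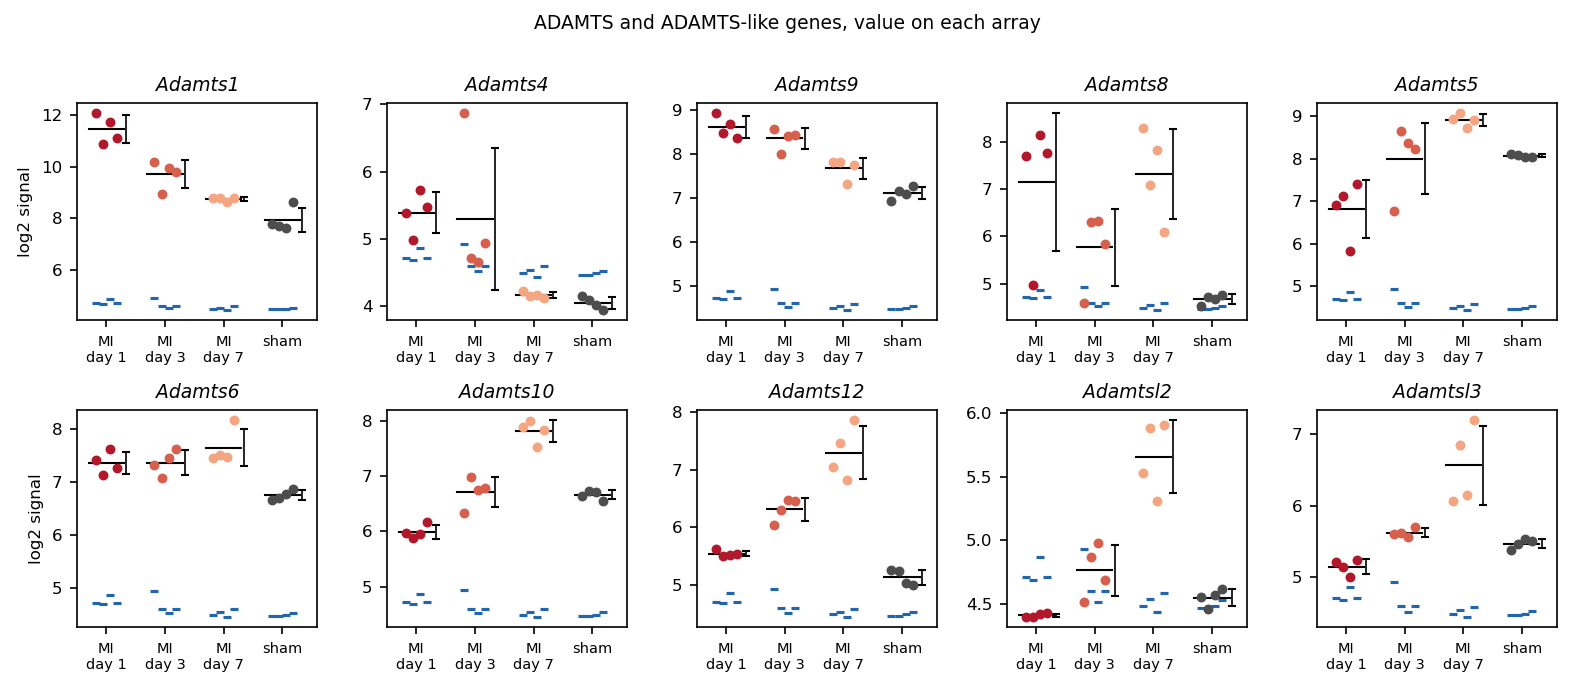
Log2 signal of 8 ADAMTS and 2 ADAMTS-like genes on each array, in the order day 1, day 3, day 7 and sham. Dots are arrays, black lines with bars are the mean and SD of 4 arrays, and blue dashes are the median of the negative controls on that array. Adamts1 is highest on day 1 and Adamts12 on day 7, and Adamts4 reaches its highest value on day 3 array 31.

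Of the 4 tested ADAMTS-like genes, 1 was lower on each day, none was higher on days 1 and 3, and 2 were higher on day 7. Over all tested genes the share called lower was 22.2% on day 1, 20.2% on day 3 and 9.94% on day 7. The share called higher was 24.9%, 23.5% and 14.9%. With 4 genes tested, these counts are not read as a result about the family. Adamtsl2, which binds latent TGF-beta binding protein and fibrillin and is mutated in human geleophysic dysplasia, had 4.40, 4.40, 4.42 and 4.43 on day 1, 4.52, 4.87, 4.98 and 4.69 on day 3 and 5.53, 5.88, 5.31 and 5.90 on day 7, against 4.56, 4.46, 4.57 and 4.62 in sham. Its day 7 arrays lay above all sham arrays, of which 1 was not above background, and day 1 was not above background. The measured day 1 value of -0.14 (adjusted p = 0.352) thus has no readable size. The difference was 0.21 on day 3 (adjusted p = 0.18) and 1.10 (SE 0.12, adjusted p = 3.11e-05) on day 7. Adamtsl3 had 5.21, 5.14, 5.01 and 5.24 on day 1, 5.60, 5.62, 5.57 and 5.71 on day 3 and 6.07, 6.85, 6.15 and 7.20 on day 7, against 5.38, 5.47, 5.53 and 5.51 in sham. Day 7 was again the group above sham, by 1.10 (SE 0.19, adjusted p = 0.000851), after -0.32 on day 1 (adjusted p = 0.169) and 0.15 on day 3 (adjusted p = 0.525).

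Adamtsl4, which binds fibrillin-1 and is mutated in human displaced lens, was the lower one. Its values ran from 6.29 to 6.67 on day 1, 6.28 to 6.40 on day 3 and 6.44 to 6.57 on day 7, against 6.73 to 6.93 in sham. The differences were -0.37 (SE 0.08, adjusted p = 0.0017) on day 1, -0.50 (SE 0.08, adjusted p = 0.000127) on day 3 and -0.33 (SE 0.08, adjusted p = 0.00586) on day 7. With quantile normalisation the day 1 difference was -0.59 (adjusted p = 0.000456). Adamtsl5 ran from 6.22 to 6.41 on day 1, 6.01 to 6.34 on day 3 and 6.04 to 6.46 on day 7, against 6.31 to 6.50 in sham and was not called. Centring of the arrays made it lower on day 3, at -0.30, and on day 7, at -0.27. Adamtsl1 was at or below the negative-control median on all arrays and was not tested.

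The days were also compared with one another, where a difference is a change in the distance from sham. Between day 3 and day 1, 4 of 30 members were higher on day 3 and 2 lower, where 8.12% of genes were called, 5.96% higher and 2.16% lower. Without array 31 the counts were 9 higher and 4 lower. Calls as higher were then gained for Timp2 (1.47), Adamts5 (1.59), Mmp2 (1.12), Adamts3 (0.49) and Adamtsl2. Mmp9 (-1.31) and Adamts4 (-0.62) were gained as lower. With all arrays the uncalled values were 0.90 for Timp2, 1.18 for Adamts5, 0.90 for Mmp2 and 0.36 for Adamts3. They were -0.30 for Mmp9 and -0.09 for Adamts4. Between day 7 and day 3, 9 were higher on day 7 and 6 lower (12.7% of genes called, 4.07% higher and 8.59% lower), and between day 7 and day 1, 12 were higher and 8 lower (26.4% of genes called, 13.7% higher and 12.7% lower). These comparisons share arrays with each other. From day 1 to day 3, Mmp8 and Adamts1 were lower on the later day, at a difference of -2.69 (SE 0.38, adjusted p = 0.000878) and -1.74 (SE 0.31, adjusted p = 0.00342), and Mmp14 was higher, by 1.39 (SE 0.30, adjusted p = 0.011). From day 3 to day 7, the members lower on day 7 were Mmp3, Mmp8, Mmp9, Mmp19, Timp1 and Adamts9. Those higher on day 7 were Mmp2, Mmp23, Timp2, Timp3, Adamts10, Adamts12, Adamts19, Adamtsl2 and Adamtsl3. Of these 15 calls, those of Mmp9, Mmp19, Timp3 and Adamts19 were lost when certain single arrays were left out, with the highest adjusted p between 0.079 and 0.122. With quantile normalisation the calls of Mmp9, Mmp19, Timp3 and Adamts9 were lost (adjusted p between 0.0578 and 0.102).

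The fibroblast markers were also mostly higher on day 7. Of the 12 tested fibroblast markers, 6 were lower and none higher on day 1, 4 were higher and 2 lower on day 3, and 9 were higher and 1 lower on day 7. Their summed signal ran from 104.8 to 113.3 on day 1, 110.9 to 132.9 on day 3 and 146.0 to 152.6 on day 7, against 114.3 to 117.4 in sham, and Pdgfrl was not above background on day 1. Array 31 had a mean fibroblast marker signal of 9.24, where the other day 3 arrays had 10.97 to 11.07. On day 1, when Mmp14 was called higher, 6 of these markers were called lower and none higher. Postn, at 1.33 (adjusted p = 0.114), and Cthrc1, at 0.56 (adjusted p = 0.148), then lay above all sham arrays without a call. The part of fibroblasts in the day 1 value of Mmp14 was not tested. Nor was their part in the day 7 values of Mmp2, Mmp14, Mmp23, Timp2, Adamts10, Adamts12, Adamtsl2 and Adamtsl3. Among the other cell types, 4 of 9 endothelial markers were lower and 1 higher on day 1, 1 lower and 3 higher on day 3, and 1 higher on day 7. Of 10 smooth muscle and pericyte markers, 3 were lower and 2 higher on day 1, 3 lower and 1 higher on day 3, and 1 lower and 4 higher on day 7. Of 10 mesothelial markers, 3 were lower and 1 higher on day 1, 1 lower and 1 higher on day 3, and 2 higher on day 7. Of 5 ventricular cardiomyocyte markers, 4 were lower on day 1, 4 on day 3 and 2 on day 7. Of 9 tested markers of cartilage, valve and other tissues that a dissection could carry, 2 were lower on day 1, 4 lower and 1 higher on day 3, and 2 higher on day 7, with Acan, Chad, Foxn1, Sftpc and Sftpb not above background in any group. Among the 4 lower on day 3, Myh2 and Myh4 were not above background on that day.

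**Figure D5:**
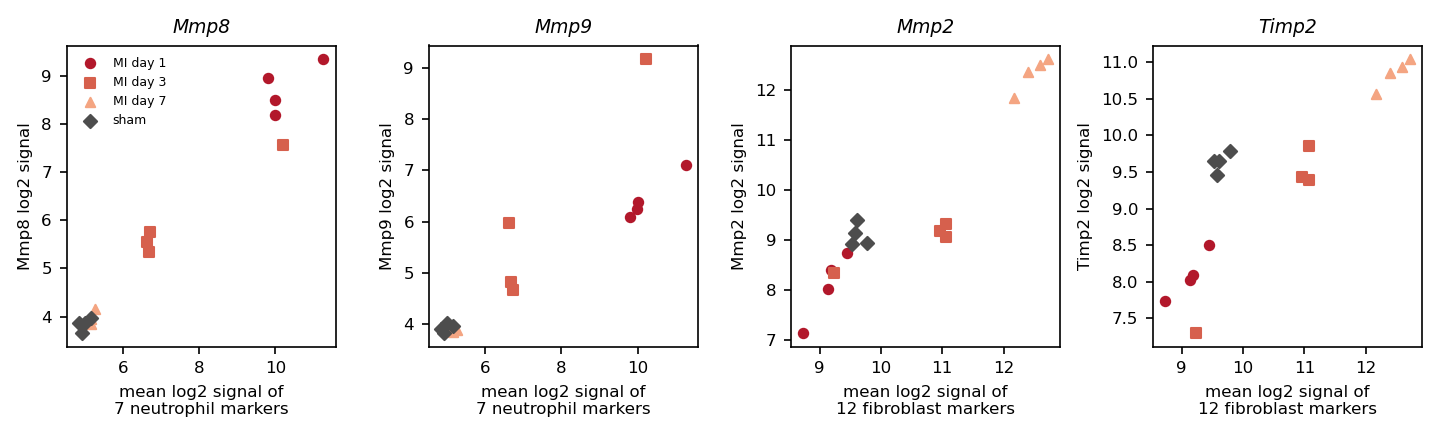
Log2 signal of Mmp8 and Mmp9 against the mean log2 signal of 7 neutrophil markers, and of Mmp2 and Timp2 against that of 12 fibroblast markers, with 1 point per array and colours and shapes for day 1, day 3, day 7 and sham. Day 3 array 31 lies with the day 1 arrays in neutrophil markers, at 10.21, and in fibroblast markers, at 9.24, apart from the other 3 day 3 arrays.

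Around the families, the substrates and regulators were counted from companion lists. Beside all these lists, 24.9% of all tested genes were called higher and 22.2% lower on day 1. The shares were 23.5% and 20.2% on day 3, and 14.9% and 9.94% on day 7. Of 24 tested matrix substrates of the MMP and ADAMTS proteases, 5 were higher and 5 lower on day 1, 14 higher and 4 lower on day 3, and 19 higher and none lower on day 7, with median differences of 0.04, 0.78 and 1.69. Among the lower ones, Fmod was not above background on days 1 and 3, and Reln, lower on day 3, was not above background in any group. Fibronectin, Fn1, was higher by 4.91 (SE 0.44, adjusted p = 2.48e-06) on day 1, 6.09 (SE 0.44, adjusted p = 5.56e-07) on day 3 and 7.18 (SE 0.44, adjusted p = 6.24e-07) on day 7. Vcan, the versican substrate of Adamts1, Adamts4, Adamts5 and Adamts9, was higher by 2.76 (SE 0.27, adjusted p = 5.46e-06) on day 1. On that day Adamts1, Adamts4 and Adamts9 were higher and Adamts5 was lower. Tenascin C, Tnc, was higher by 4.18 (SE 0.47, adjusted p = 1.56e-05) on day 1 and 6.58 (SE 0.47, adjusted p = 4.88e-07) on day 3. Of the fibrillar collagens, Col3a1 was higher by 4.69 (SE 0.47, adjusted p = 4.78e-06) on day 3 and 6.54 (SE 0.47, adjusted p = 1.44e-06) on day 7, and Col1a1 by 6.73 (SE 0.56, adjusted p = 3.49e-06) on day 7. Col1a1 is also one of the fibroblast markers.

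Of 20 tested activators and regulators of these proteases, 9 were higher and 6 lower on day 1, 10 higher and 4 lower on day 3, and 9 higher and 2 lower on day 7. Among the lower ones, Pzp was not above background on any infarction day, and Spock2 was not on day 3. Thrombospondin 1, Thbs1, which binds MMP precursors, was higher by 8.17 (SE 0.44, adjusted p = 1.05e-07) on day 1, 6.11 (SE 0.44, adjusted p = 4.74e-07) on day 3 and 5.56 (SE 0.44, adjusted p = 2.55e-06) on day 7. The urokinase receptor Plaur, which focuses plasmin formation at the cell surface, was higher by 3.0 (SE 0.33, adjusted p = 1.11e-05) on day 1, and urokinase, Plau, by 2.20 (SE 0.25, adjusted p = 1.22e-05) on day 3. Serpinb2, an inhibitor of urokinase, was higher on day 1 by at least 1.55 (measured 1.93, SE 0.34, adjusted p = 0.000473). Its sham values, at 4.02 to 4.16, lay below every array median, so it passed the filter only through infarction arrays. Serpinb2 could thus hardly enter the counts as lower. Lrp1, the receptor that clears several MMPs and TIMPs from the matrix, was higher by 1.88 (SE 0.20, adjusted p = 6.36e-06) on day 3 and 1.93 (SE 0.20, adjusted p = 1.5e-05) on day 7. Thbs2 was higher by 3.89 (SE 0.40, adjusted p = 1.72e-05) on day 7. Reck, a membrane-bound MMP inhibitor, was lower on day 1, at a difference of -0.58 (SE 0.13, adjusted p = 0.00298), and was called higher on day 7. Bsg, the inducer of MMPs also called EMMPRIN, was lower on day 1, at a difference of -0.52 (SE 0.20, adjusted p = 0.0483), and on day 3, at a difference of -0.64 (SE 0.20, adjusted p = 0.0189).

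Of 15 tested metalloproteases outside the 4 families, 6 were higher and 2 lower on day 1, 7 higher and 3 lower on day 3, and 9 higher and 2 lower on day 7. Of all tested genes, 47.2% were called on day 1, 43.8% on day 3 and 24.9% on day 7. Adam8, a leukocyte surface protease, was higher by 3.05 (SE 0.25, adjusted p = 1.04e-06) on day 1 and 2.43 (SE 0.25, adjusted p = 5.45e-06) on day 3, and the widely expressed Adam9 by 1.62 (SE 0.15, adjusted p = 3.83e-06) and 1.90 (SE 0.15, adjusted p = 1.09e-06). Mme, the peptide-degrading neprilysin, was lower at a difference of -1.56 (SE 0.24, adjusted p = 0.000188) on day 1, and the prohormone carboxypeptidase Cpe at a difference of -1.59 (SE 0.54, adjusted p = 0.0265) on day 3. On day 7 angiotensin-converting enzyme, Ace, was higher by 2.28 (SE 0.43, adjusted p = 0.00163), the procollagen C-proteinase Bmp1 by 2.10 (SE 0.18, adjusted p = 3.77e-06) and Adam10 by 1.47 (SE 0.21, adjusted p = 0.000196). Adam10 was also higher on day 1, by 0.80 (SE 0.21, adjusted p = 0.0072), and both Adam10 and Bmp1 were called higher on day 3.

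Of 19 tested transcription factors and stimuli of MMP genes, 11 were higher on day 1, 9 on day 3 and 7 on day 7, and none was lower. Il1b, a cytokine that induces several MMPs, was higher by 5.90 (SE 0.69, adjusted p = 2.01e-05) on day 1 and 3.83 (SE 0.69, adjusted p = 0.000477) on day 3. Il6, not above background in sham, was higher by at least 2.23 (measured 2.69, SE 0.30, adjusted p = 1.3e-05) on day 1, at least 1.62 (measured 2.08, SE 0.30, adjusted p = 7.83e-05) on day 3 and at least 0.51 (measured 0.97, SE 0.30, adjusted p = 0.0281) on day 7. The sham values of Il6, at 3.87 to 4.27, lay near or below the sham array medians of 4.20 to 4.26. Il6 thus passed the filter mainly through infarction arrays and could hardly enter the counts as lower. The AP-1 subunit gene Fosl2 was higher by 1.46 (SE 0.14, adjusted p = 3.51e-06) on day 1 and 1.06 (SE 0.14, adjusted p = 3.57e-05) on day 3. Runx1 was higher by 1.10 (SE 0.16, adjusted p = 0.00022) and Tgfb1 by 0.94 (SE 0.11, adjusted p = 4.27e-05) on day 7. Both were also called higher on days 1 and 3. On day 1 Runx1 was at 0.91 (SE 0.16, adjusted p = 0.000481) and Tgfb1 at 0.90 (SE 0.11, adjusted p = 2.73e-05). Fosl1, Elf3, Tnf and Osm were not above background in any group.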

How the data were processed

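Atrial RNA was hybridised to 16 single-colour arrays, 4 per group. The labels name a 3' mouse array, but rows are named as transcript clusters, so the array design is uncertain. The authors deposited log2 signals for 72688 rows, and per the submitters' processing notes Affymetrix Expression Console was used. For background correction, summarisation, scaling and genome build the sources used here give no setting, and log2 differences were therefore not turned into folds. Column medians ran from 4.17 to 4.61.

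Of the rows, 30604 carried 1 gene symbol through GEO's platform annotation, 2146 several, 33206 none and 6732 were controls. Of the single-symbol rows, 30602 matched a GRCm38.p6 gene name, 1121 after an update, and the row with the highest mean stood for a gene. Testing required a value above the array's median of all rows on 4 or more of the 16 arrays, which 18389 genes met. The background rule (at or below the negative-control median on all arrays of a group) was taken from an earlier analysis of these data.

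A mean per group was fitted with limma 3.58.1 in R 4.3.3 (lmFit, eBayes with trend), and all adjusted p-values in the text are Benjamini-Hochberg values over all tested genes within a comparison, called under 0.05. Errors are the SE of the fit, and the 4 arrays per group limit the precision. Alternatives were quantile normalisation, centring on the median, no filter, a stricter filter (95th percentile of negative controls), no variance trend, array weights, the mean of a gene's rows, omission of arrays 31 and 13, and omission of each array in turn. For members without a difference of at least 1 and for comparisons between days, these were added after seeing the data.

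Members, companion lists and marker lists were chosen with earlier results of these data known. Members called with a difference of at least 1 from sham and no overlap are given array by array, the others by range or difference. From each companion list, up to 3 called genes with the largest difference per day are named. Reck, Bsg and the second values of a gene named on another day were chosen after their values were seen. Promoter sequences are from RefSeq (GRCm38.p6), with a window for 34 of 49 members.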

Additional observations from a re-analysis of the deposited data

Results flagged for a closer look

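The distance from sham differed between days, by the test of the difference itself (limma, adjusted p under 0.05), in 41 member comparisons. All differences are log2, later day minus earlier day. Between day 3 and day 1, Mmp8 at -2.69 and Adamts1 at -1.74 were lower on day 3. Mmp14 at 1.39, Adamts12 at 0.77, Adamts10 at 0.72 and Mmp23 at 0.49 were higher on day 3, with a bound of at least 0.16 for Mmp23, which was not above background on day 1. The Adamts12 difference was 0.72 and not called without day 3 array 33 (adjusted p = 0.0534).

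Between day 7 and day 3, the lower members on day 7 were Mmp3 at -2.55, Timp1 at -2.48, Mmp9 at -2.28, Mmp8 at -2.10, Mmp19 at -0.75 and Adamts9 at -0.68. For Mmp9 and Mmp8, not above background on day 7, the bounds were -1.64 and -1.54 or lower. The higher members were Mmp2 at 3.36, Timp2 at 1.86, Timp3 at 1.22, Adamts10 at 1.10, Adamts12 at 0.98, Adamtsl3 at 0.94, Adamtsl2 at 0.89, Mmp23 at 0.79 and Adamts19 at 0.26. The Mmp9 call was lost without any 1 of the 4 sham or 4 day 7 arrays, day 1 array 11, 12 or 14 or day 3 array 34 (adjusted p between 0.0575 and 0.0994). The Adamts19 call was lost without sham array 2, 3 or 4, array 11, 32, 33, 34, 71, 73 or 74 (adjusted p between 0.0532 and 0.112). The Timp3 call was lost without any 1 sham array or array 14, 71, 72 or 74 (adjusted p between 0.0522 and 0.122), and the Mmp19 call without array 32, 34, 72 or 73 (adjusted p between 0.0536 and 0.079). Without array 31 the measured difference of Mmp9 was -1.28 and that of Timp3 was 0.75. Quantile normalisation removed the calls of Mmp9 (adjusted p = 0.0612), Mmp19 (adjusted p = 0.102), Timp3 (adjusted p = 0.0643) and Adamts9 (adjusted p = 0.0578). Centring removed that of Mmp9 (adjusted p = 0.0506). With no filter on low values, Mmp9, Timp3 and Adamts19 were not called (adjusted p between 0.0625 and 0.0693). Without a variance trend Adamts19 was not called (adjusted p = 0.0535).

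Between day 7 and day 1, the lower members on day 7 were Mmp8 at -4.79 (bound -4.23), Mmp3 at -2.75, Adamts1 at -2.70, Mmp9 at -2.59 (bound -1.94), Timp1 at -2.16, Mmp19 at -1.27, Adamts4 at -1.22 (bound -0.87) and Adamts9 at -0.94. Higher were Mmp2 at 4.26, Timp2 at 2.76, Adamts5 at 2.09, Mmp14 at 2.08, Adamts10 at 1.82, Adamts12 at 1.75, Adamtsl3 at 1.42, Mmp23 at 1.29 (bound 0.95), Adamtsl2 at 1.24 (bound 0.91), Adamts3 at 0.68, Adamts19 at 0.31 (bound 0.12) and Mmp16 at 0.26, the last not above background in either group. Mmp23, Adamtsl2 and Adamts19 were not above background on day 1. With quantile normalisation Adamts19 was at 0.48 and Mmp16 at 0.43. The Adamts4 call was lost without day 1 array 13 or 14 or day 7 array 72 or 74 (adjusted p between 0.0533 and 0.0726).

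A single array stood apart from the other 3 of its group (Dixon's test) in 9 of 120 member groups, where chance gives about 1 in 20. Day 1 array 12 had 4.98 for Adamts8, where the other arrays had 7.70 to 8.15. Day 3 array 31 had 6.87 for Adamts4, against 4.66 to 4.94, and 5.98 for Timp3, against 7.84 to 7.91. Day 7 array 73 was the low array in 3 members. It had 7.52 for Timp1, where the others had 8.79 to 8.96, 7.31 for Adamts9, where they had 7.76 to 7.82, and 8.65 for Adamts1, where they had 8.79 to 8.80. Day 7 array 74 had 8.16 for Adamts6, against 7.44 to 7.51. In sham, array 1 had 7.06 for Timp1, against 5.53 to 5.75, and array 4 had 8.64 for Adamts1, against 7.63 to 7.77.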

How the results depend on the processing

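Of 4200 alternative values of single members, 4021 kept their side of the threshold, 71 were no longer called, 107 became called and 1 reversed with a call. The total includes the mean of a gene's rows, which could not change a member's difference because each member had 1 row. Many of the values also come from omitting an array outside the comparison, so the total is no measure of robustness. The value that reversed with a call was Adamts5 on day 3, at 0.34 without arrays 31 and 13, against -0.07 with them. Changes of sign without a call on either side were counted among the 4021. An example is Mmp2 on day 3, at 0.09 without arrays 31 and 13, against -0.13 with them. Under the stricter filter, which left 10 members, the counts fell to 5 higher and 4 lower on day 1, 5 and 2 on day 3 and 5 and 1 on day 7. They were then 2 and 1 for day 3 against day 1, 3 and 4 for day 7 against day 3, and 4 and 4 for day 7 against day 1. On day 1 against sham, 12 higher and 9 lower members became 12 and 12 with centring and 11 and 11 with quantile normalisation. Centring gave 8 lower members on day 3, and quantile normalisation gave 3 lower members for day 7 against day 3. For day 3 against day 1, array weights gave 11 higher and 6 lower members, and omission of arrays 31 and 13 gave 10 and 5. Over the omissions of 1 array, that comparison ranged from 3 to 9 higher and from 2 to 4 lower. Without arrays 31 and 13, members called against sham numbered 12 higher and 10 lower on day 1, 15 and 4 on day 3 and 17 and 3 on day 7. The share of member calls that were higher was 72.2% on day 3 and 61.9% after centring, and 60.0% for day 7 against day 3 and 72.7% with quantile normalisation. Over all genes the share called higher on day 1 was 52.9%, against 30.2% with quantile normalisation, which moved the median of all genes from 0.06 to -0.15, and 38.5% after centring. On day 3 it was 53.8%, against 36.1% and 36.9%, and on day 7 60.0%, against 60.8% and 37.9%. The causes were not tested beyond the smaller number of members under the stricter filter. No paired analysis was possible because the groups compared share no replicate numbers. Members near the negative controls have differences that are limited by background.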
